A study of Homo sapiens with 20 samples.

Results

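The interaction between BCOR depletion and the hormone dexamethasone was measured in HEK293-GR cells, a line from human embryonic kidney with constant expression of an added glucocorticoid receptor (GR). It is, for each gene, the log2 change with dexamethasone after depletion of BCOR (siBCOR) minus the log2 change in cells given a non-targeting pool (siNON). The 16 RNA libraries that enter it were chosen by their labels, out of 20 libraries in the series, and the other libraries hold BCOR ChIP DNA. There were 4 labelled replicates in each of siBCOR dex, siNON dex, siBCOR vehicle and siNON vehicle. The small interfering RNA pools were used at 20 nM for 72 h, and 100 nM dexamethasone or its ethanol vehicle was given for 6 h, in medium stripped of steroids. All 4 groups carry the added receptor, whose reads cannot be told apart from those of the cell's own NR3C1 gene, so the line stands for cells with an abundant receptor. The series text names 3 replicates for expression, whereas 4 are labelled and the labels' protocols give 4 as biological replicates.

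GR is a transcription factor that enters the nucleus when it binds a glucocorticoid, and it raises some genes and lowers others. BCOR is a corepressor that transcription factors such as BCL6 bring to genes. It is also a core subunit of PRC1.1, a Polycomb complex that places ubiquitin on histone H2A and keeps genes silent. The question, after the series title, is which GR targets, above all those of cell growth and mobility, respond otherwise when BCOR is low, and the interaction is the comparison that addresses it.

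Most hormone responses were not called different after BCOR depletion, and 16 genes were. The response was lower in siBCOR cells for 13 of them, namely PDGFA, ACSL1, NSDHL, SNX33, ELK1, SNORD137, TUBA3FP, INSIG1, APOLD1, RTL9, SLC39A14, S100P and GLUL. It was higher for RHOU, FJX1 and SOX18. Here and below, lower and higher refer to the signed log2 change and not to the strength of the response. INSIG1 fell in both cells, and more in siBCOR cells (-1.11) than in siNON cells (-0.72). GLUL (-0.41 in siBCOR, 0.06 in siNON) and SNORD137 (-1.51 in siBCOR, 0.64 in siNON) were called as falling in siBCOR cells only. FJX1 fell in siNON cells (-0.80), against -0.04 in siBCOR cells. The growth factor gene PDGFA had the smallest adjusted p, with a rise of 4.07-fold in siBCOR cells and of 14.8-fold in siNON cells. The 16 genes are 0.0974% of the 16432 genes tested by edgeR's quasi-likelihood test at a false discovery rate of 0.05, and an unadjusted p under 0.05 was found for 3164 genes (19.3%). The median interaction over all tested genes was -0.017.

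The count of calls depended on single libraries. Without siNON dex replicate 4 the same test called 2537 genes, while without any other single library it called 2 to 7. After removal of siNON dex replicate 4 and of siNON vehicle replicate 3 it called 1785 genes, 10.8% of the 16527 tested, and all 16 genes named above were among them. Where a value below is given without the pair of libraries, these are the libraries meant.

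Depth and identity of the libraries were checked first. The reads on the 1 transcript kept for each symbol came to 18580294 to 28054808 per library. The depleted gene BCOR, on chromosome X, averaged 14.7 ± 0.706 CPM (SD, n = 4) in siBCOR dex, against 93.8 ± 15.9 CPM in siNON dex. In siBCOR vehicle the mean was 22.4 ± 0.795 CPM, against 196 ± 29.4 CPM in siNON vehicle, and CPM are edgeR's depth-normalised counts. Depleted and control libraries did not overlap at either treatment, so the labels match the target. BCOR also fell with the hormone, with a log2 change of -0.60 in siBCOR cells and -1.06 in siNON cells, and this difference was not called with all libraries (interaction 0.46 ± 0.166, adjusted p = 0.22 by edgeR). It was called without the pair of libraries (0.45, adjusted p = 0.0195). The receptor gene NR3C1 averaged 864 ± 23.2 CPM in siBCOR dex and 706 ± 29.7 CPM in siNON dex (SD, n = 4), a difference that was called (adjusted p = 0.000875 by edgeR), and its interaction was 0.14 with a 95% interval of -0.02 to 0.30. The siBCOR vehicle libraries had 1053 to 1130 CPM of NR3C1, above the mean of siBCOR dex.

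Markers of the line and of other cell types were summed per library, here scaled by the library total alone and without edgeR's scaling factors. The 10 markers known from HEK293 cells came to 1233 to 1283 CPM in siBCOR dex and 1427 to 1567 CPM in siNON dex, and to 1230 to 1427 CPM in siBCOR vehicle and 1317 to 1567 CPM in siNON vehicle. Their members did not all move alike. VIM had 318 to 338 CPM in siBCOR dex and 371 to 419 CPM in siNON dex, and KRT18 179 to 196 and 214 to 241 CPM. NEFM went the other way, with 8.22 to 10.1 CPM in siBCOR dex and 6.53 to 8.29 CPM in siNON dex. The 10 immune markers came to 11.0 to 11.8 CPM in siBCOR dex and 14.5 to 17.1 CPM in siNON dex, and to 10.7 to 14.6 CPM in siBCOR vehicle and 13.8 to 15.6 CPM in siNON vehicle, mostly from CD68, and MS4A1 was at 0 in every library. The 9 fibroblast markers came to 26.7 to 35.3 CPM in siBCOR dex and 27.0 to 46.5 CPM in siNON dex. In vehicle they came to 32.4 to 52.2 CPM in siBCOR and 30.6 to 47.2 CPM in siNON libraries. COL1A1 alone made up most of these sums, at 22.0 to 45.4 CPM over all libraries. The 7 endothelial markers came to at most 4.43 CPM in any library. The part of these shifts in the results was not tested. In bulk RNA, fewer cells of a type and less RNA per cell cannot be told apart.

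Promoter sequences are shown for 3 interaction genes, chosen because S100P has a hormone-enriched BCOR peak beside its start, PDGFA has the interaction with the smallest p, and RTL9 alone among the matched genes holds the searched motif. They are RefSeq sequences of GRCh38.p14 running from 250 bases before to 50 bases after the start site, 5′ to 3′ on the gene's strand, and 12 of the 16 genes had a match in the table. They were matched by gene, so the start site shown need not be that of the hg19 transcript whose reads were counted. The letters AGAACA, a repeat unit of the GR response element, were searched on both strands and are in capitals where found, here as the reverse complement TGTTCT.
S100P (plus strand, chr4:6693628-6693927): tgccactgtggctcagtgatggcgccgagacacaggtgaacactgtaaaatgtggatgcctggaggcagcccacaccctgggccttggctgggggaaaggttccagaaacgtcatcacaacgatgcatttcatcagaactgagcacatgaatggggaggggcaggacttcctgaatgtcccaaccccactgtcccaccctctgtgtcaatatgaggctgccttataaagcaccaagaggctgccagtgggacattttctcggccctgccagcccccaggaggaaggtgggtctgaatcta
PDGFA (minus strand, chr7:520177-520476): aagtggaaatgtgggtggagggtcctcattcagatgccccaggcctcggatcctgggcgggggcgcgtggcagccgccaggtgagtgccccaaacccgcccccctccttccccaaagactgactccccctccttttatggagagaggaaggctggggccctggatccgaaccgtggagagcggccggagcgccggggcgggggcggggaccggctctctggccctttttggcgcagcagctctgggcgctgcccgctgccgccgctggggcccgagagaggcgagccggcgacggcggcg
RTL9 (plus strand, chrX:110358598-110358897): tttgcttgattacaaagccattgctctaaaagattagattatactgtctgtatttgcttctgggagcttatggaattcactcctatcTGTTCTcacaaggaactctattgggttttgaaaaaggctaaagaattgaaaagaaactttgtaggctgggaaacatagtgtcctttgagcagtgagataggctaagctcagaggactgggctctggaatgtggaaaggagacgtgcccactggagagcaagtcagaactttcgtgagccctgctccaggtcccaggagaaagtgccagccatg
The motif was in 1 of the 12 promoters and in 9.2% of the 12823 promoters matched to tested genes. A match describes the letters of this window and is not a binding site.

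Growth factor genes and their signalling come first. PDGFA (hg19 chromosome 7, 536897 to 559481) encodes a secreted ligand of the platelet-derived growth factor receptors, which drive division and migration. It had 9.40, 10.48, 10.87 and 9.44 CPM in siBCOR dex replicates 1 to 4 and 46.2, 44.1, 45.5 and 38.6 CPM in siNON dex. It had 2.60, 2.89, 1.88 and 2.46 CPM in siBCOR vehicle and 3.26, 3.29, 2.50 and 2.71 CPM in siNON vehicle. The dex groups stood far apart without overlap, the vehicle groups overlapped, and siNON dex replicate 4 was the lowest of its group. The interaction was -1.86 ± 0.171 (log2 ± SE, 95% interval -2.22 to -1.50, adjusted p = 7.32e-05 by edgeR, n = 4 per group), and -1.83 without the pair of libraries. In dexamethasone siBCOR cells had 0.231 times the PDGFA of siNON cells. In vehicle the ratio was 0.839 and was not called (adjusted p = 0.224).

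ELK1 (chromosome X, 47494919 to 47510003) encodes an ETS transcription factor that the kinase ERK phosphorylates downstream of growth factors. ELK1 had 160.5, 162.4, 166.6 and 143.4 CPM in siBCOR dex, and 259.9, 255.9, 273.6 and 217.5 CPM in siNON dex libraries. In vehicle it averaged 62.4 ± 5.41 CPM in siBCOR and 60.3 ± 5.35 CPM in siNON libraries, and these groups overlapped. The lowest siNON dex library was again replicate 4, still above every siBCOR dex library. ELK1 rose 2.54-fold in siBCOR cells and 4.17-fold in siNON cells (interaction -0.72 ± 0.119, adjusted p = 0.0351 by edgeR). ELK1 was called under 11 of 27 alternatives, and its adjusted p reached 0.132 without siNON vehicle replicate 3, where the interaction was -0.64.

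SHC1, an adaptor that links receptors to RAS, was just outside the threshold (interaction -0.44 ± 0.082, adjusted p = 0.0518 by edgeR). It averaged 32.03 ± 0.488 CPM in siBCOR dex and 43.1 ± 1.84 CPM in siNON dex, and 33.01 ± 0.714 CPM in siBCOR vehicle and 32.8 ± 1.75 CPM in siNON vehicle. It was called under 7 of 27 alternative settings. Of the 45 tested genes of growth factor and RAS-ERK signalling, 0 had a higher and 2 a lower response (PDGFA and ELK1), and 43 were not called, with a median interaction of -0.013. Over all genes 0.0974% were called, a share to hold beside this and every list count below. The lists were chosen with earlier results of these data known, so a count above that share is a description and not a test of the list. None of the 37 tested genes of cell growth control was called, with a median of -0.081, against -0.017 over all genes. In the list of growth control CDKN1A, an inhibitor of cyclin-dependent kinases, gave 0.35 (adjusted p = 0.173) and GAS1, a gene of growth arrest, 0.58 (adjusted p = 0.14). Without the pair of libraries both were called, at 0.38 (adjusted p = 0.0292 by edgeR) for CDKN1A and 0.64 (adjusted p = 0.0188) for GAS1.

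**Figure D1:**
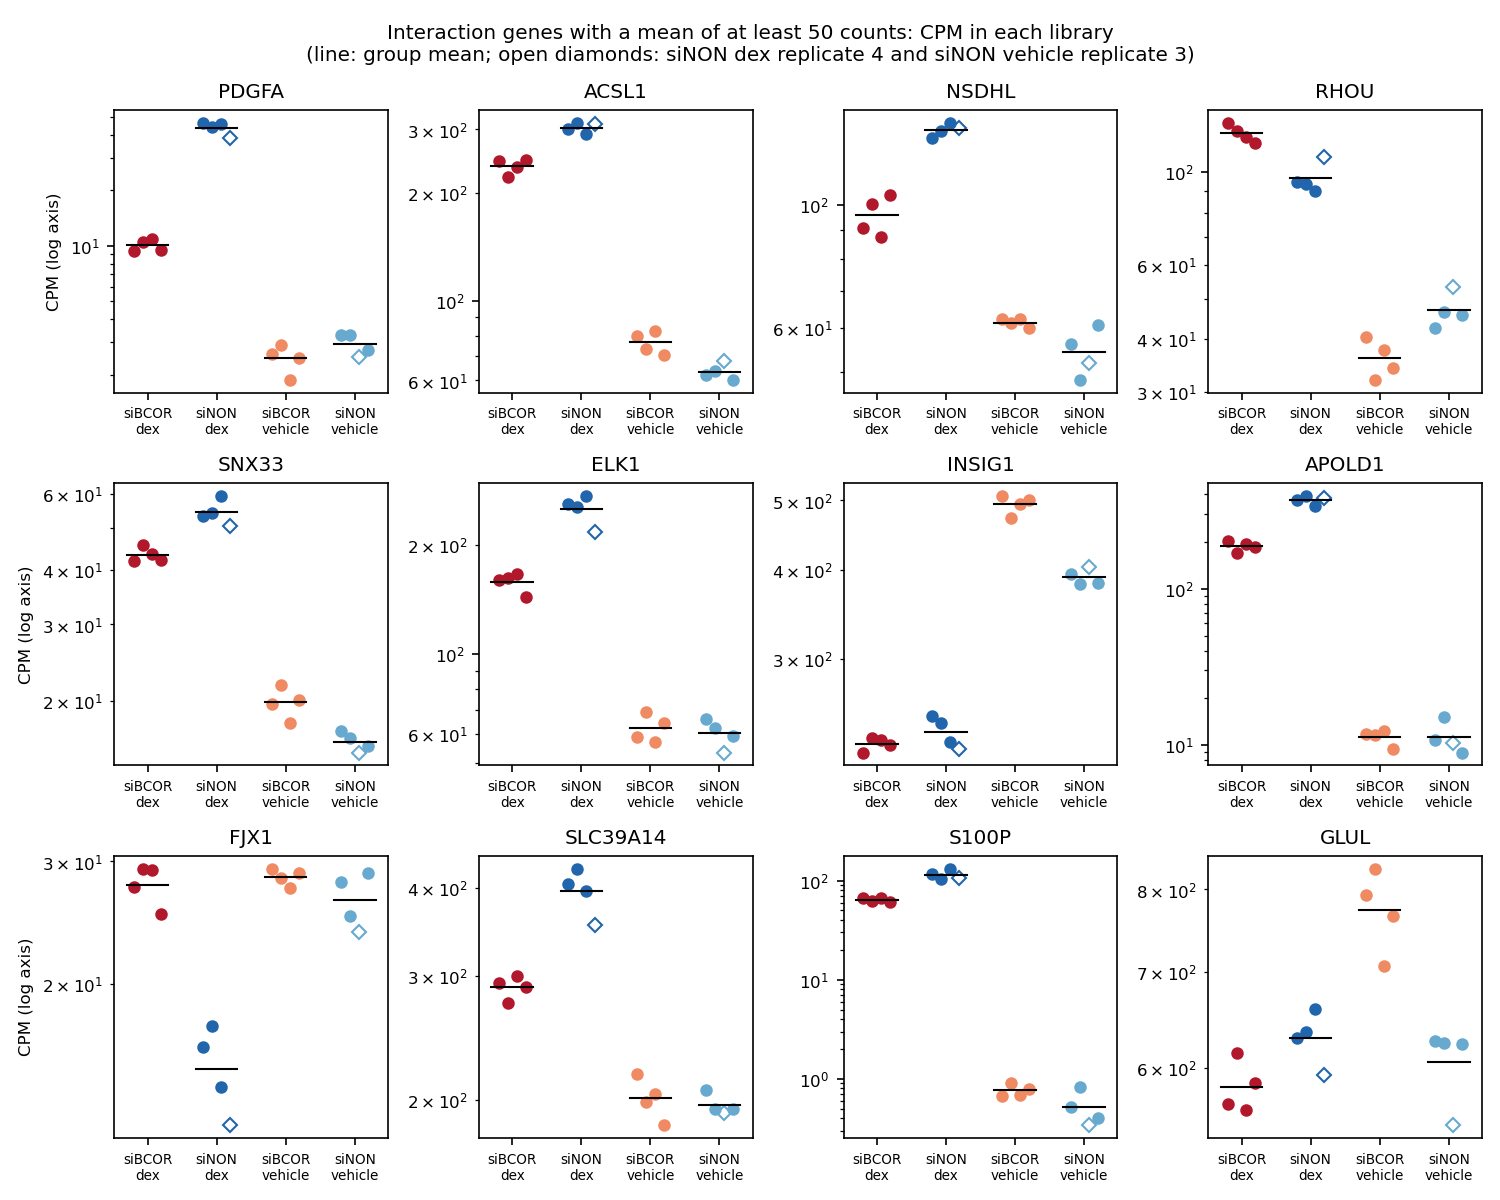
CPM on a log axis in each library for the 12 interaction genes with a mean of at least 50 counts, by group, with lines at the group means and open diamonds for siNON dex replicate 4 and siNON vehicle replicate 3. For PDGFA the siBCOR dex libraries lie at 9.40 to 10.9 CPM, below every siNON dex library, while the vehicle groups overlap.

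The list of adhesion and migration genes had 2 called members, both with a higher response in siBCOR cells. SNX33, outside that list, is described with them and had a lower response. RHOU (chromosome 1, 228870824 to 228882416) encodes an atypical small GTPase that shapes the actin cytoskeleton. RHOU had 130.8, 125.6, 121.3 and 117.6 CPM in siBCOR dex replicates 1 to 4 and 94.9, 93.8, 90.1 and 108.5 CPM in siNON dex. Vehicle values were 40.6, 32.1, 37.8 and 34.2 CPM in siBCOR and 42.7, 46.4, 53.2 and 45.7 CPM in siNON libraries. The siBCOR libraries were higher in dexamethasone and lower in vehicle, without overlap at either treatment. siNON dex replicate 4 and siNON vehicle replicate 3 were the highest of their groups. RHOU rose 3.42-fold in siBCOR cells and 2.06-fold in siNON cells (interaction 0.73 ± 0.119, adjusted p = 0.0351 by edgeR), and was called under 14 of 27 alternatives.

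FJX1 (chromosome 11, 35639735 to 35642421) is the human relative of the fly gene four-jointed, whose Golgi kinase acts on the cadherins Fat and Dachsous in tissue polarity. FJX1 had 27.5, 29.3, 29.1 and 25.2 CPM in siBCOR dex replicates 1 to 4 and 16.3, 17.5, 14.3 and 12.6 CPM in siNON dex. Its vehicle values were 29.3, 28.4, 27.4 and 28.9 CPM in siBCOR and 28.1, 25.1, 23.8 and 28.8 CPM in siNON libraries. The siNON dex group stood below the other groups, which overlapped among themselves. FJX1 fell in siNON cells (-0.80 ± 0.0954, adjusted p = 5.8e-06 by edgeR), and its change in siBCOR cells was -0.04 (95% interval -0.23 to 0.16). The interaction was 0.77 ± 0.133 (adjusted p = 0.0351 by edgeR) and was called under 10 of 27 alternatives.

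SNX33 (chromosome 15, 75941348 to 75950968), a sorting nexin of endocytosis and membrane shape, rose 2.19-fold in siBCOR cells and 3.38-fold in siNON cells. It averaged 43.4 ± 1.699 CPM in siBCOR dex and 54.4 ± 3.61 CPM in siNON dex, and 19.8 ± 1.604 CPM in siBCOR vehicle and 16.1 ± 0.8287 CPM in siNON vehicle (SD, n = 4). Its siBCOR libraries were lower in dexamethasone and higher in vehicle, without overlap at either treatment (interaction -0.63 ± 0.102, adjusted p = 0.0351 by edgeR). The call of SNX33 held under 10 of 27 alternatives. Of the 66 tested adhesion and migration genes, 2 had a higher response (RHOU and FJX1), 0 a lower one and 64 were not called, with a median of -0.117. The cadherin genes CDH7 (1.06, adjusted p = 0.169) and CDH2 (-0.40, adjusted p = 0.169), which hold cells together, were next by p and were not called. Without the pair of libraries 10 of the 66 were higher and 8 lower, CDH7 and CDH2 among them, where 10.8% of all genes were called.

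Genes of sterol, fatty acid and glutamine metabolism made the next group. ACSL1 (chromosome 4, 185676749 to 185733413) joins long-chain fatty acids to coenzyme A. ACSL1 had 244.8, 221.9, 236.2 and 245.9 CPM in siBCOR dex replicates 1 to 4 and 301.7, 312.4, 290.7 and 309.8 CPM in siNON dex. In vehicle it had 79.9, 73.4, 82.3 and 70.7 CPM in siBCOR and 62.3, 63.6, 67.9 and 60.3 CPM in siNON libraries. Depleted cells were lower in dexamethasone and higher in vehicle, without overlap, and siNON dex replicate 4 lay within its group. The rise was 3.097-fold in siBCOR cells and 4.78-fold in siNON cells (interaction -0.63 ± 0.084, 95% interval -0.80 to -0.45, adjusted p = 0.0081 by edgeR). The call of PDGFA and of ACSL1 held in each of 27 alternatives run, while NSDHL lost it under 3. The other 13 genes lost the call under 13 (RHOU) to 20 (GLUL, S100P, SLC39A14 and RTL9) of 26 or 27 alternatives.

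NSDHL (chromosome X, 151999511 to 152037907), an enzyme of cholesterol synthesis that removes methyl groups from sterols, had 90.9, 100.3, 87.6 and 104.4 CPM in siBCOR dex replicates 1 to 4 and 132.1, 136.0, 140.3 and 137.5 CPM in siNON dex. It averaged 61.4 ± 1.06 CPM in siBCOR vehicle and 54.4 ± 5.33 CPM in siNON vehicle, where the groups overlapped. NSDHL rose 1.56-fold in siBCOR cells and 2.51-fold in siNON cells (interaction -0.69 ± 0.0996, adjusted p = 0.0149 by edgeR). The call was lost without siBCOR dex replicate 1 or 3 or siNON dex replicate 3, where the adjusted p ran from 0.0516 to 0.0673.

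INSIG1 (chromosome 7, 155089482 to 155101945) encodes a membrane protein that holds the sterol sensor SCAP in the endoplasmic reticulum and so restrains cholesterol synthesis. INSIG1 had 222.2, 232.6, 231.2 and 228.0 CPM in siBCOR dex replicates 1 to 4 and 249.6, 244.3, 230.2 and 224.7 CPM in siNON dex. In vehicle it had 507.2, 471.9, 494.8 and 500.7 CPM in siBCOR and 394.1, 382.1, 403.3 and 384.0 CPM in siNON libraries. The groups overlapped in dexamethasone and stood apart in vehicle, where siBCOR cells were higher (0.34, adjusted p = 0.00017 by edgeR). INSIG1 fell to 0.463 of its vehicle level in siBCOR cells and to 0.607 in siNON cells (interaction -0.39 ± 0.067, adjusted p = 0.0351 by edgeR), and was called under 8 of 27 alternatives.

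GLUL (chromosome 1, 182347228 to 182361341) is glutamine synthetase, which joins ammonia to glutamate. GLUL had 566.0, 614.0, 560.0 and 585.7 CPM in siBCOR dex replicates 1 to 4 and 629.8, 635.8, 660.0 and 592.5 CPM in siNON dex. Without hormone it had 793.2, 827.0, 707.2 and 766.0 CPM in siBCOR and 626.0, 624.0, 546.4 and 623.4 CPM in siNON libraries. Here too the groups overlapped in dexamethasone and stood apart in vehicle, and siNON vehicle replicate 3 was the lowest of all vehicle libraries. GLUL fell in siBCOR cells (-0.41 ± 0.0611, adjusted p = 7.76e-05 by edgeR), while its change in siNON cells was 0.06 (95% interval -0.07 to 0.19). The interaction was -0.47 ± 0.0864 (adjusted p = 0.0472 by edgeR), was called under 7 of 27 alternatives, and without siNON vehicle replicate 3 was -0.40 and not called (adjusted p = 0.169).

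Of the 27 tested cholesterol synthesis and SREBP genes, 0 had a higher and 2 a lower response (NSDHL and INSIG1), with 25 not called and a median of -0.137, where 0.0974% of all genes were called. The members called do opposite things in the pathway, since NSDHL makes sterols and INSIG1 restrains their synthesis. Of the 35 tested fatty acid genes 1 was called, ACSL1, with a median of -0.189. The desaturase genes FADS1 (-0.28, adjusted p = 0.169) and FADS2 (-0.27, adjusted p = 0.195) were called only in some alternatives, among them the fit without the pair of libraries.

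S100P, APOLD1 and SLC39A14 also rose less after depletion. S100P (chromosome 4, 6695566 to 6698897) encodes a small calcium-binding protein and had 66.6, 62.4, 66.7 and 60.9 CPM in siBCOR dex replicates 1 to 4 and 116.5, 104.6, 130.9 and 105.8 CPM in siNON dex. Its vehicle level was near the limit of counting, with 67 counts and 0.767 ± 0.112 CPM in siBCOR vehicle, and 47 counts and 0.521 ± 0.214 CPM in siNON vehicle. The dex groups did not overlap and the vehicle groups did. S100P rose 83.5-fold in siBCOR cells and 220.2-fold in siNON cells, folds that carry the counting error of the vehicle groups (interaction -1.40 ± 0.257, adjusted p = 0.0472 by edgeR). The S100P interaction was called under 7 of 27 alternatives. In dexamethasone alone siBCOR cells had 0.561 times the S100P of siNON cells (adjusted p = 1.24e-05).

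APOLD1 (chromosome 12, 12878851 to 12944399), a gene known from the lining of vessels, had 202.5, 168.0, 192.3 and 185.1 CPM in siBCOR dex replicates 1 to 4 and 366.9, 390.7, 336.2 and 378.2 CPM in siNON dex. In vehicle it averaged 11.3 ± 1.25 CPM in siBCOR and 11.3 ± 2.65 CPM in siNON libraries. All siBCOR dex libraries lay below all siNON dex libraries, and the vehicle means were alike to 3 digits. APOLD1 rose 16.5-fold in siBCOR cells and 32.6-fold in siNON cells (interaction -0.98 ± 0.169, adjusted p = 0.0351 by edgeR), and was called under 11 of 27 alternatives.

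SLC39A14, the zinc importer ZIP14, had 293.2, 274.6, 299.6 and 289.5 CPM in siBCOR dex replicates 1 to 4 and 405.1, 425.3, 396.1 and 353.7 CPM in siNON dex. In vehicle it averaged 201 ± 13.9 CPM in siBCOR and 196 ± 6.63 CPM in siNON libraries, with overlap. siNON dex replicate 4 was the lowest of its group and still above all siBCOR dex libraries. The rise was 1.44-fold in siBCOR cells and 2.01-fold in siNON cells (interaction -0.48 ± 0.0884, adjusted p = 0.0472 by edgeR), called under 7 of 27 alternatives.

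The remaining 4 genes had a mean under 50 counts, and were called under 6 (RTL9) to 10 (SNORD137) of 26 alternatives. SOX18 (chromosome 20, 62679079 to 62680979), a transcription factor of vessel development, had 2.46, 2.58, 2.51 and 2.35 CPM in siBCOR dex and 2.37, 2.33, 2.04 and 1.79 CPM in siNON dex. It had 1.105, 1.639, 1.533 and 0.974 CPM in siBCOR vehicle and 2.51, 2.90, 2.45 and 2.35 CPM in siNON vehicle. The siBCOR vehicle group stood below the siNON vehicle group, and the dex groups overlapped (interaction 1.17 ± 0.207, adjusted p = 0.0367 by edgeR). RTL9 (chromosome X, 109662285 to 109699562), a gene derived from a retrotransposon, averaged 1.03 ± 0.0979 CPM in siBCOR dex and 1.67 ± 0.249 CPM in siNON dex, and 0.838 ± 0.0737 CPM in siBCOR vehicle and 0.507 ± 0.127 CPM in siNON vehicle. It rose in siNON cells (1.74 ± 0.177), was not called in siBCOR cells (0.31), and its interaction was -1.43 (adjusted p = 0.0367 by edgeR). TUBA3FP (chromosome 22, 21362496 to 21368576), a tubulin pseudogene whose reads may belong to its relatives, averaged 2.403 ± 0.1199 CPM in siBCOR dex and 3.83 ± 0.494 CPM in siNON dex, and 0.993 ± 0.223 CPM in siBCOR vehicle and 0.5795 ± 0.0792 CPM in siNON vehicle (interaction -1.43, adjusted p = 0.0351 by edgeR). SNORD137 (chromosome 9, 12972556 to 12972632) is a small nucleolar RNA of 76 bases, a class that poly(A) selection is not made to capture. It had 21 counts over the siBCOR dex group, 46 over siNON dex, 56 over siBCOR vehicle and 31 over siNON vehicle (interaction -2.15, adjusted p = 0.0351 by edgeR).

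**Figure D2:**
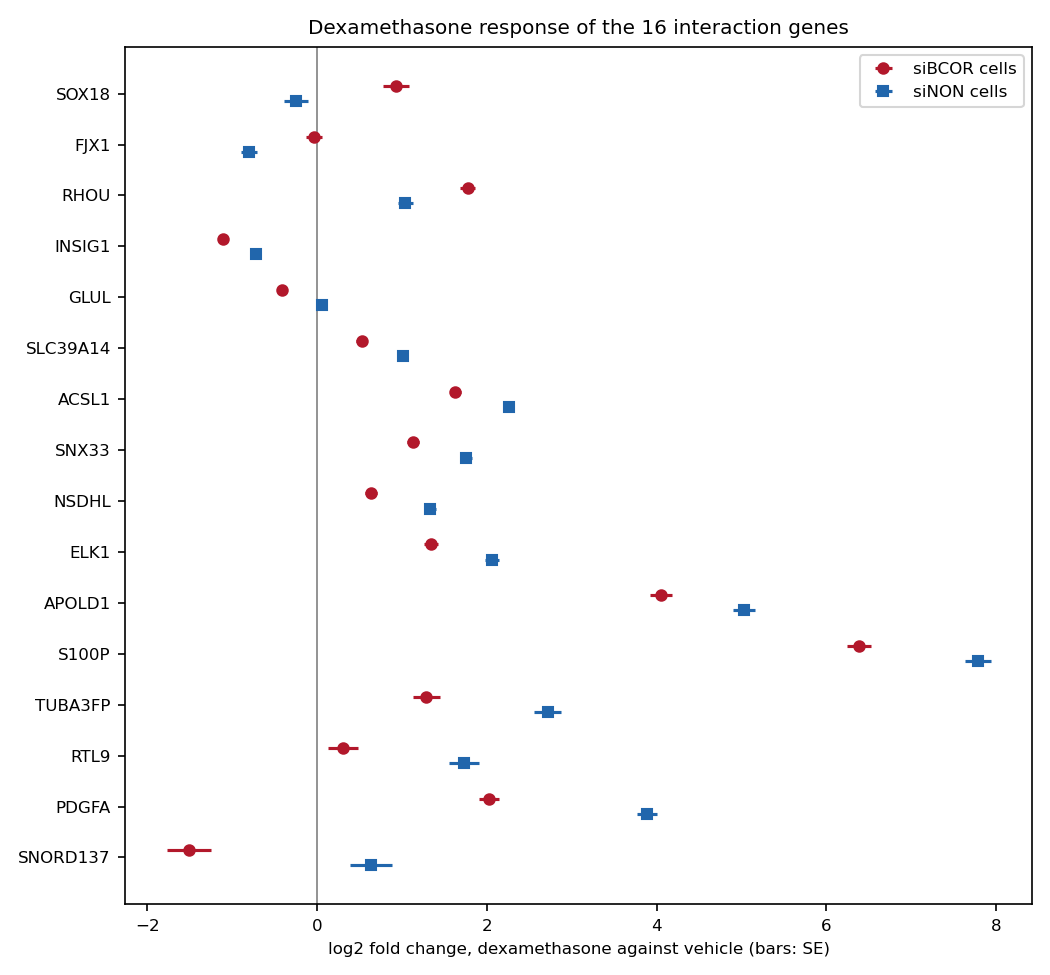
Log2 fold change of dexamethasone against vehicle, with SE as bars, in siBCOR cells (circles) and siNON cells (squares) for the 16 interaction genes. The siBCOR circle lies left of the siNON square for 13 genes and right of it for SOX18, FJX1 and RHOU.

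The interaction can be read from either side. Of the 16 genes, 14 were called for dexamethasone in siBCOR cells, where 23.1% of all genes were, and 13 in siNON cells, where 19.4% were. Between siBCOR and siNON, 13 were called in dexamethasone, where 39.5% of all genes were, and 9 in vehicle, where 17.1% were. The difference was called in dexamethasone only for 7 genes, in vehicle only for 3 (INSIG1, SOX18 and GLUL) and at both treatments for 6. These counts use the groups that also enter the interaction and are a description.

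Well-known hormone targets were looked at as a panel of 12, and none was called with all libraries. FKBP5, a cochaperone of GR, averaged 438 ± 18.2 CPM in siBCOR dex and 518 ± 12.9 CPM in siNON dex, and 95.6 ± 6.86 CPM in siBCOR vehicle and 103 ± 1.81 CPM in siNON vehicle. Its interaction was -0.13, with a 95% interval of -0.29 to 0.03. The interval was -0.39 to 0.21 for the kinase gene SGK1, -0.29 to 0.32 for the transcription factor gene KLF9, which did not pass the test for the hormone in either cell, -0.18 to 0.21 for the protease gene ADAMTS1, which fell with hormone, and -0.20 to 0.37 for the growth regulator MYC, which also fell. Such intervals bound a difference and do not show equal responses.

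The panel's largest interactions pointed both ways. PDK4, which limits glucose oxidation, had 410.0, 340.0, 388.3 and 357.1 CPM in siBCOR dex replicates 1 to 4 and 242.0, 248.8, 217.9 and 281.4 CPM in siNON dex. The dex groups did not overlap, and its interaction was 0.52 (95% interval 0.20 to 0.84, adjusted p = 0.195 by edgeR), and 0.55 without the pair of libraries, where it was called (adjusted p = 0.0305). CDKN1C, an inhibitor of cyclin-dependent kinases, had 32.9, 30.5, 35.7 and 27.0 CPM in siBCOR dex replicates 1 to 4 and 84.1, 73.0, 74.2 and 73.7 CPM in siNON dex. Its vehicle means were 1.33 ± 0.384 CPM in siBCOR and 1.96 ± 0.349 CPM in siNON cells, and its interaction was -0.71 (95% interval -1.19 to -0.24, adjusted p = 0.201 by edgeR). CDKN1C was called under 1 of 27 alternatives, the fit without siNON dex replicate 4 alone (adjusted p = 0.0463 by edgeR). Without the pair of libraries its interaction was -0.62 and not called (adjusted p = 0.0967 by edgeR). TSC22D3, the anti-inflammatory protein GILZ, was lower in siBCOR cells in dexamethasone (adjusted p = 0.00389) and in vehicle (adjusted p = 8.84e-05 by edgeR), at 799 ± 27.8 CPM in siBCOR dex and 1126 ± 97.3 CPM in siNON dex, and 205 ± 35.7 CPM in siBCOR vehicle and 379 ± 60.5 CPM in siNON vehicle. Its interaction was 0.39 (adjusted p = 0.235 by edgeR), and with the axis of within-group variation described below as a covariate it was 0.64 and called (adjusted p = 0.00389). TSC22D3 was called under 2 of 27 alternatives, this covariate among them. The others were the phosphatase gene DUSP1 (0.25), the NF-kB inhibitor gene NFKBIA (-0.18), the helix-loop-helix gene ID4 (0.25) and the clock gene PER1 (-0.15). Of the 38 tested glucocorticoid-induced genes 0 had a higher and 2 a lower response (ACSL1 and GLUL), 36 were not called, and the median was -0.023.

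**Figure D3:**
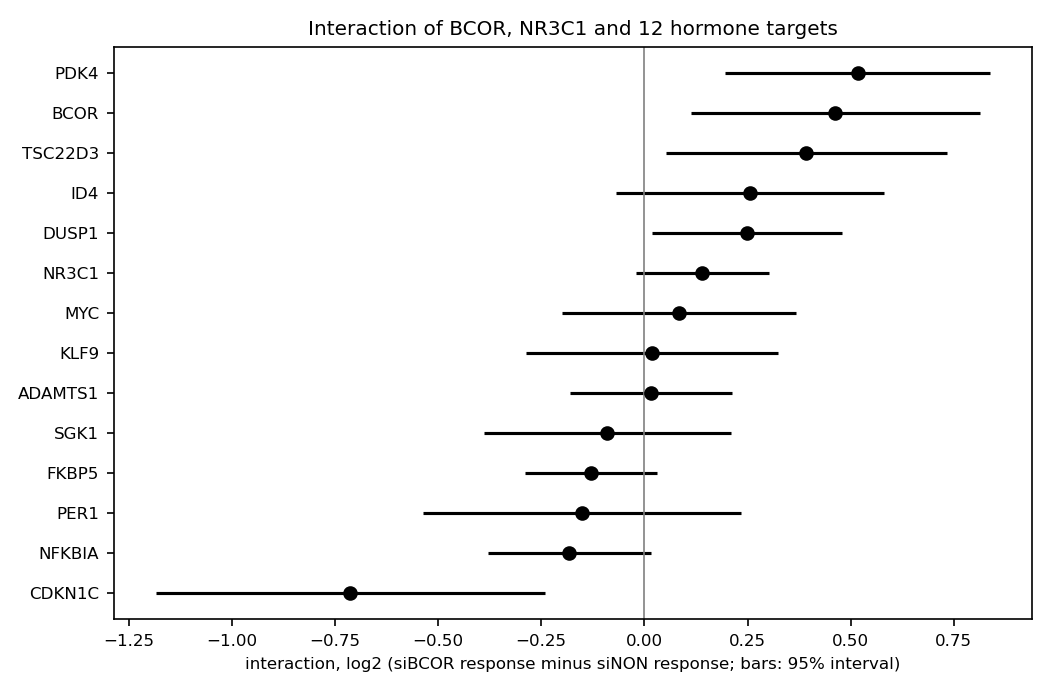
Interaction (log2, siBCOR response minus siNON response) with 95% intervals for BCOR, NR3C1 and the 12 hormone targets. FKBP5, SGK1, KLF9, MYC and ADAMTS1 have intervals that span 0, and CDKN1C lies lowest at -0.71.

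Among the 20 functional lists, calls were also made in Polycomb-type developmental genes, where SOX18 was the 1 member of 74 called and the median was 0.084. With all libraries none was called of the 11 PRC1.1 genes, the 11 PRC2 genes, the 18 BCL6 and corepressor genes or the 26 GR chaperone and coregulator genes. None was called either of the 27 immediate early, 17 NF-kB and inflammatory, 27 interferon-stimulated, 25 stress response, 24 p53 target, 27 G1/S, 28 G2/M, 48 ribosomal protein or 14 housekeeping genes. Without the pair of libraries the growth factor list had 3 genes higher and 6 lower, growth control 2 and 1, cholesterol 1 and 7, fatty acids 3 and 4, glucocorticoid-induced genes 3 and 2, and Polycomb-type genes 3 and 0, each to be read beside the 10.8% of all genes called in that fit (1184 higher and 601 lower). With all libraries, 0 genes passed edgeR's test in the 13 lists just named. Their lowest count of genes with an unadjusted p under 0.05 was 1, in 11 PRC2 genes and in 48 ribosomal genes. The highest was 8 of the 28 G2/M genes (2 higher and 6 lower), where 19.3% of all genes had such a p. The medians of the 13 lists ran from -0.161 in the stress list to 0.0851 in the PRC2 list. Without the pair of libraries 8 of the 28 G2/M genes were called, all higher, although the median of the list was -0.069 with all libraries and -0.049 without the pair. The G2/M genes lay 0.126 above their group mates in siNON dex replicate 4 and 0.0727 above them in siNON vehicle replicate 3 on the median log2 scale.

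**Figure D4:**
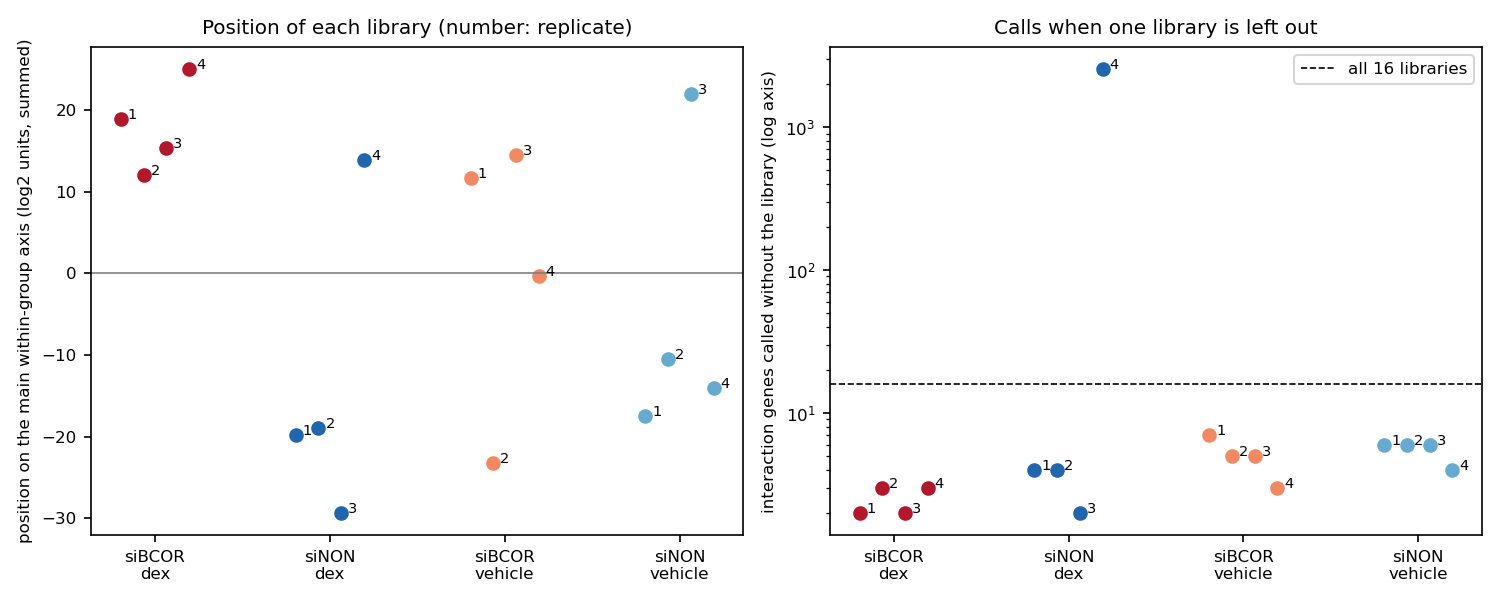
Position of each library on the main axis of variation within groups (left) and the number of interaction genes called when that library is left out, on a log axis (right), with replicate numbers beside the points. siNON dex replicate 4 lies at 13.9 among siBCOR dex libraries rather than with its group, and leaving it out gives 2537 calls, against 2 to 7 for every other library.

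The weight of siNON dex replicate 4 and siNON vehicle replicate 3 was then measured. The SD across genes of a library's log2 CPM from the mean of its group mates was 0.335 for siNON dex replicate 4 and 0.319 for siNON vehicle replicate 3, and 0.122 to 0.299 for the other 14. Quality weights estimated by limma were 0.273 and 0.274 for these, and 0.357 to 2.22 for the others. Next after them was siBCOR vehicle replicate 2, with an SD of 0.299 and a weight of 0.357. siNON dex replicate 4 and siNON vehicle replicate 3 deviate along the same direction. Across 13430 genes with a mean of at least 50 counts, their deviations from their group mates correlated with r = 0.854, a description across genes of libraries that share the cell line.

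The main axis of variation within groups, the first principal component of group-centred log2 CPM over these genes, held 59.9% of the within-group variance and the second 8.14%. siBCOR dex libraries lay at 12.03 to 25.03 on it, and siNON dex replicates 1 to 3 at -29.3 to -18.9, with replicate 4 at 13.9. siBCOR vehicle libraries were spread from -23.3 to 14.6, with replicate 2 at -23.3 and its group mates at -0.298 to 14.6. siNON vehicle libraries lay at -17.5 to -10.5, with replicate 3 at 22.0. In dexamethasone the siBCOR and siNON groups thus overlapped on this axis through 1 library, and in vehicle both groups were spread along it.

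The interaction moved with this axis across genes. Its correlation with the axis loading was r = 0.76 over 13430 genes with all libraries, 0.735 without the pair, and 0.624 when the axis was also rebuilt without the pair. The points share the libraries from which both measures come. Of the 1147 genes called higher without the pair and with a mean of at least 50 counts, 97.6% had a positive loading, and of the 583 called lower 95.03% had a negative one, whereas 46.3% of all genes had a positive loading. Loading correlated with log2 transcript length at r = 0.253 and with promoter GC content at r = -0.177 over 10821 genes with a promoter sequence. With the position on the axis as a covariate, an alternative chosen after seeing the data, 102 genes were called, among them 15 of the 16 (all but RTL9) and 66 of the 1785. The position was not centred within groups. It averaged 17.8 in siBCOR dex, -13.5 in siNON dex, 0.67 in siBCOR vehicle and -4.99 in siNON vehicle. It also comes from the same counts, so this covariate can take up part of the interaction itself. Whether the axis is a property of the libraries or of the cells was not tested.

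**Figure D5:**
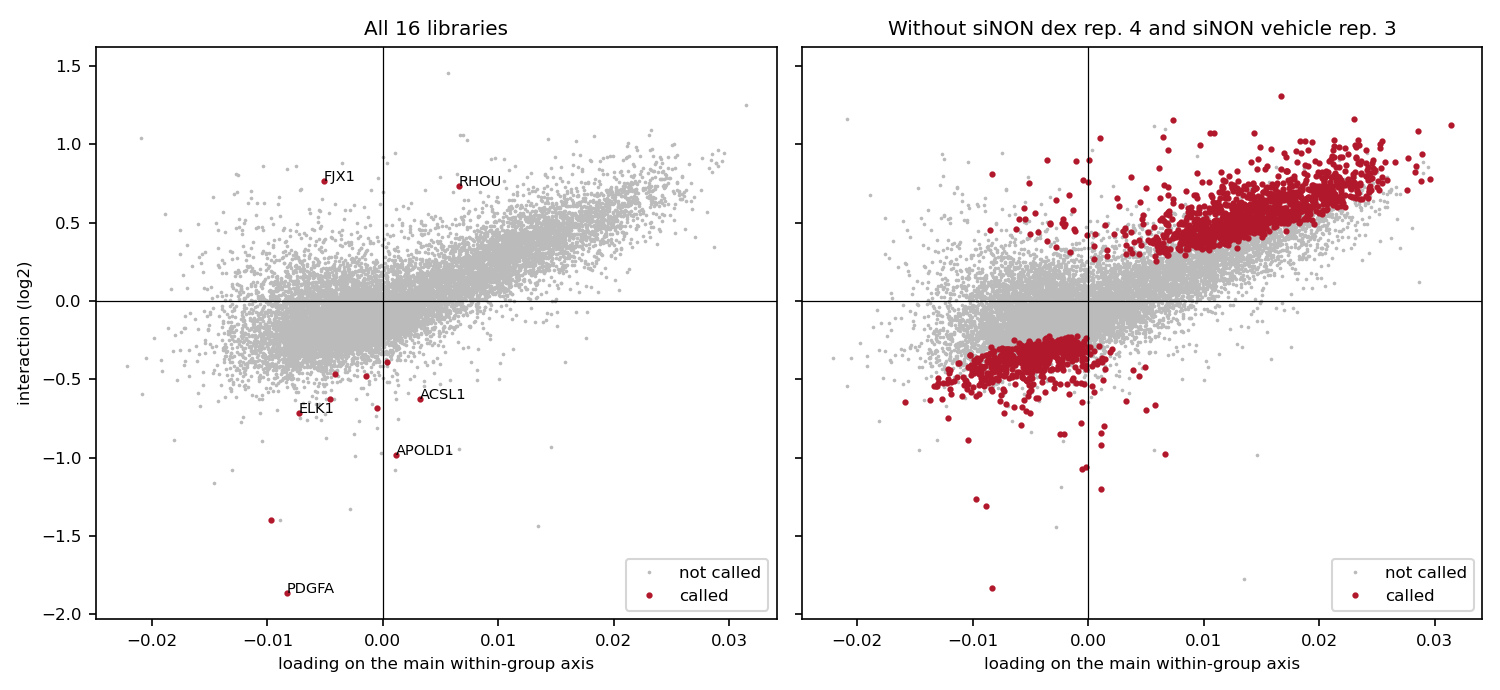
Interaction (log2) against loading on the main within-group axis for each gene with a mean of at least 50 counts, with all 16 libraries (left) and after removal of siNON dex replicate 4 and of siNON vehicle replicate 3 (right), called genes in red. On the left, ACSL1, FJX1, INSIG1 and APOLD1 have a loading opposite in sign to their interaction. The other interaction genes shown have the same sign, among them S100P (loading at percentile 4.84), PDGFA (8.05), ELK1 (11.6) and RHOU (73.0). PDGFA lies far below the slope. Most genes called on the right lie along the slope.

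Of the 1785 genes called without the pair, 1184 had a higher and 601 a lower response in siBCOR cells, with medians of 0.57 and -0.38 among those called. A change above 0.5 was found for 904 and above 1 for 71. Leaving out libraries that stand apart lowers the spread by construction, and the median SE was 0.143 without and 0.160 with them.

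CYP1B1, a cytochrome P450 that hydroxylates estrogens and carcinogens, had the smallest p among genes called higher without the pair and not called with all libraries in the same model. CYP1B1 had 28.8, 26.4, 29.7 and 27.2 CPM in siBCOR dex replicates 1 to 4 and 12.5, 12.9, 11.3 and 18.6 CPM in siNON dex. In vehicle CYP1B1 had 14.004, 9.258, 12.856 and 12.294 CPM in siBCOR and 10.9, 11.5, 15.5 and 10.7 CPM in siNON libraries. siNON dex replicate 4 and siNON vehicle replicate 3 were the highest of their groups, and the dex groups did not overlap with or without them. The interaction was 1.03 (adjusted p = 0.105) with all libraries, 1.07 (adjusted p = 0.0035) without the pair and 0.68 (adjusted p = 0.00172) with the axis as a covariate, all by edgeR. Its loading was at percentile 90.1 of all genes.

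SMC5, a subunit of a complex that repairs DNA, had 52.6, 49.2, 55.5 and 54.4 CPM in siBCOR dex replicates 1 to 4 and 31.3, 30.9, 24.8 and 56.8 CPM in siNON dex. Vehicle libraries had 24.2, 16.3, 26.1 and 20.9 CPM in siBCOR and 23.6, 22.0, 42.6 and 24.6 CPM in siNON libraries. siNON dex replicate 4 was the highest dex library and siNON vehicle replicate 3 the highest vehicle library. The interaction was 0.93 with all libraries, 0.98 (adjusted p = 0.00916) without the pair and 0.39 (adjusted p = 0.091) with the axis as a covariate, by edgeR, and the loading was at percentile 98.7. The other 8 named by the same rule were SNAPC1, CAV1, the coat protein of caveolae, PLS3, which bundles actin, UACA, OGFRL1, MAP9, ZNF711 and RDX, which ties actin to the membrane, with loadings at percentile 73.8 (CAV1) to 98.1 (MAP9). Without the pair their interactions ran from 0.57 in CAV1 to 1.03 in MAP9.

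Among genes called lower without the pair and not called with all libraries in the same model, SLC41A1, a magnesium transporter, had the smallest p. SLC41A1 had 190.3, 184.9, 196.5 and 170.7 CPM in siBCOR dex replicates 1 to 4 and 266.4, 261.9, 266.8 and 203.6 CPM in siNON dex. Vehicle means were 86.4 ± 3.53 CPM in siBCOR and 79.8 ± 5.23 CPM in siNON libraries. siNON dex replicate 4 was the lowest of its group and still above the siBCOR dex libraries. The interaction was -0.54 (adjusted p = 0.105) with all libraries, -0.58 (adjusted p = 0.00442) without the pair and -0.41 (adjusted p = 0.0358) with the axis as a covariate, by edgeR. S1PR3, a receptor for sphingosine 1-phosphate that acts in migration, gave -0.73 (adjusted p = 0.0714), -0.78 (adjusted p = 0.0131) and -0.66 (adjusted p = 0.03) in the same order by edgeR, with a loading at percentile 50.6. The other 8 were MICB, RAB5B, ZDHHC9, POLH, HEG1, SV2A, STK35 and NYNRIN, with values without the pair of -0.61 (NYNRIN), -0.68 (HEG1) and -0.38 (RAB5B) among them. With the axis as a covariate 8 of these 20 genes were called, CYP1B1, SNAPC1, UACA, S1PR3, MICB, RAB5B, SLC41A1 and ZDHHC9.

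BCOR binding near the interaction genes was read from the authors' peak lists, made from 2 libraries for each of dexamethasone and vehicle after 1 h, which hold 3055 dex-enriched, 8587 shared and 267 vehicle-enriched peaks in hg19. Of the 16 genes 11 (68.75%, exact Clopper-Pearson interval 41.3 to 89.0%, counting error only) had a peak of any class within 50 kb of the start site, against 54.3% of all tested genes. A dex-enriched peak lay that near in 7 of the 16 (43.75%, interval 19.8 to 70.1%), against 13.6% of all tested genes and 23.1% of the 3180 genes called for dexamethasone in siNON cells. A shared peak lay near 7 of the 16, against 47.8% of all, and a vehicle-enriched peak near 0 of 16 (interval up to 20.6%), against 2.74%. These shares are given with no test. Among the 1784 genes called without the pair and tested with all libraries, 14.4% had a dex-enriched peak within 50 kb.

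The 7 genes with a dex-enriched peak were ACSL1, ELK1, RTL9, S100P, SLC39A14, SNX33 and TUBA3FP. All had a lower response in siBCOR cells, as had 13 of the 16 interaction genes, and a link with the peaks was not tested. The S100P peak (chr4:6695088-6695422 in hg19) was centred 311 bases before the start site. The ACSL1 peak (chr4:185734533-185734867) lay 1287 bases before the start, the SNX33 peak (chr15:75939183-75939517) 1998 bases before it, and the ELK1 peak (chrX:47508526-47508860) 1310 bases into the gene. The RTL9 peak was centred 9041 bases into the gene, and the TUBA3FP peak 12137 bases past the start and outside the annotated transcript. SLC39A14 had dex-enriched peaks 4838 and 44658 bases before its start. A shared peak lay 647 bases into GLUL. PDGFA, with the smallest p of all, had no listed peak of any class within 100 kb, nor had SNORD137, and APOLD1, INSIG1 and NSDHL had none within 50 kb. FJX1, RHOU and SOX18, with a higher response, had shared peaks within 50 kb and no dex-enriched one, although the nearest dex-enriched peak to RHOU lay 51974 bases past its start, just outside that window.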

How the data were processed

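RNA was measured in 16 libraries of HEK293-GR cells. The authors deposited raw counts of reads on exons, which HOMER gave without depth adjustment per the file headers, for 65572 RefSeq transcripts in hg19. HOMER 4.10.3, Bowtie 0.12.9, TopHat2, bedtools, FastQC and Trimmomatic are listed in the submitters' processing notes. The deposited BCOR peak lists carry a score of 0 for every peak, and the rule that sorted peaks into classes is not given in the sources used here. The counting command in the header names no strand option, though the library names carry the word flip, so overlapping and antisense genes may share reads.

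Isoforms share reads, so the transcript with the most reads stood for each of 27896 symbols. The 134 transcripts without a gene name (0.0664% of counts) were left out. After edgeR's filterByExpr 16432 genes were tested, 14346 of them protein coding. A model of 4 group means with TMM scaling was fitted in edgeR 4.0.16 (R 4.3.3) with quasi-likelihood F tests, two-sided, and Benjamini-Hochberg adjustment over all genes. Fold changes are model values, and CPM are from edgeR. The SE was worked back from the test, as the absolute log2 change over the square root of the F statistic. The 95% intervals use this SE and can differ from the p of the test at low counts. For SNORD137 in siNON cells the interval was 0.11 to 1.16, with an unadjusted p of 0.0512 by edgeR. limma 3.58.1 and DESeq2 1.42.0 were alternatives. The axis of variation used log2 CPM with a prior count of 2. On simulated data the interaction test was checked for the recovery of known changes. The simulated counts were drawn independently, without a shared axis of variation within groups, so the check does not cover that feature of these libraries.

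The text names BCOR, NR3C1, every gene called, a panel of 12 hormone targets, the 10 genes with the smallest p in each direction called when siNON dex replicate 4 and siNON vehicle replicate 3 are left out and not called in the fit of all libraries (mean of at least 50 counts), and up to 3 members of each of 24 gene lists, of which some are given. The members, lists, panel and the pair of libraries were chosen with earlier results of these data known. No pairing of replicate numbers was assumed. A list member named by this rule is not reported here.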

Additional observations from a re-analysis of the deposited data

Results flagged for a closer look

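There were 5 values that stood apart from the other 3 libraries of their group by Dixon's test at the 95% level, out of 128 sets of 4 libraries tested, of which chance gives about 1 in 20. They were GLUL in siNON vehicle replicate 3 (546.4 CPM, others 623.4 to 626.0), MYC in the same library (177.9 CPM, others 225.7 to 227.1), CDKN1C in siNON dex replicate 1 (84.1 CPM, others 73.0 to 74.2) and NR3C1 in siBCOR vehicle replicate 2 (1053 CPM, others 1121 to 1130). The fifth was the SD from group mates of siNON vehicle replicate 3 (0.319).

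The hormone's effect differed between siBCOR and siNON cells, by the edgeR test of the interaction itself, in 16 genes. On the log2 scale, the dexamethasone effect in siBCOR minus that in siNON cells was -1.86 in PDGFA, -0.63 in ACSL1, -0.69 in NSDHL, -0.63 in SNX33, -0.72 in ELK1, -2.15 in SNORD137, -1.43 in TUBA3FP, -0.39 in INSIG1, -0.98 in APOLD1, -1.43 in RTL9, -0.48 in SLC39A14, -1.40 in S100P and -0.47 in GLUL. It was 0.73 in RHOU, 0.77 in FJX1 and 1.17 in SOX18.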

How the results depend on the processing

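The number of interaction calls, 16, was 6 with upper-quartile scaling, 5 with RLE scaling, 5 with no filter on low counts, 9 with only genes that average 50 counts or more, and 96 with DESeq2 (39 higher, 57 lower, 12 shared with the 16). It was 1681 with limma-voom quality weights, 1785 when siNON dex replicate 4 and siNON vehicle replicate 3 were left out, and 102 with axis position as a covariate, chosen after seeing the data. It stayed within 1.5 times under limma-voom (16) and robust dispersion (17). Leaving out 1 library gave 2 to 2537 interaction calls, 4198 (without siNON dex replicate 3) to 8170 for siBCOR against siNON in dexamethasone, 1810 (without siBCOR vehicle replicate 1) to 3463 in vehicle, 2894 to 4541 for the hormone in siBCOR cells and 2532 to 4050 in siNON cells. With all libraries these were 6489, 2809, 3789 and 3180. Calls between siBCOR and siNON in dexamethasone were 10141 with quality weights and 3063 with the axis covariate. In vehicle they were 5160 and 5776 in the same order, and a fit restricted to these 2 groups gave 1526. Calls of the hormone in siNON cells were 5053 with the axis covariate. The causes were not tested.

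The 16 genes gave 428 values under the alternatives, of which 194 were called, 234 were not and 0 changed sign. Values near 0 that changed sign were ADAMTS1 (-0.022 with upper-quartile scaling, -0.031 to 0.10 over all alternatives), KLF9 (-0.014 with upper-quartile scaling, -0.035 with quality weights, -0.15 with the axis covariate) and PER1 (0.13), COL1A1 (0.17) and COL3A1 (0.022) with the axis covariate. LYZ gave -0.12 with quality weights and -0.20 with the axis covariate. With single libraries left out the values ran from -0.031 to 0.094 in ADAMTS1, -0.063 to 0.11 in KLF9, -0.030 to 0.33 in LYZ and -0.51 to 0.013 in PECAM1.

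The replicate block lowered the interaction calls to 3, all among the 16. Deviations of same-numbered libraries correlated above 0.1 in 9 of 24 pairs (range -0.77 to 0.75), and 5 of 16 libraries correlated best with their own number. Pairs of siBCOR dex with siNON dex ran from 0.098 to 0.479, and pairs of siBCOR vehicle with siNON vehicle from -0.38 to 0.75. With 59.9% of the within-group variance on 1 axis, these correlations cannot decide whether same-numbered libraries share a batch. By depth, 12 of the 16 genes average 50 counts or more, while SNORD137, TUBA3FP, SOX18 and RTL9 rest on group counts of 21 to 333.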
